A study of Mus musculus with 9 samples.

Results

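The genes described here encode the nuclear subunits of oxidative phosphorylation, and they were chosen by symbol: names beginning with Nduf, Uqcr or Atp5, the Sdh genes a to d, and Cox4 to Cox8 followed by a letter, without names containing -ps. This rule matched 91 of the 34590 genes in the count files. Of these, 86 had a summed count of at least 90 over the 9 libraries, and the 86 passed the filter on low counts and were tested. By complex there were 36 genes of complex I, 4 of complex II, 8 of complex III, 16 of complex IV and 15 of complex V, 79 subunit genes in all. The other 7 have subunit-like symbols but encode assembly factors or unrelated proteins (Ndufaf1, Ndufaf2, Ndufaf3, Ndufaf4, Atp5s, Atp5sl and Cox4nb). The 5 genes below the floor were Atp5l2 with 84 counts, Cox6a2 with 9, Cox7b2 with 2, Cox8c with 2 and Cox8b with 0 over the 9 libraries.

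In oxidative phosphorylation, complexes I and II pass electrons from NADH and succinate to ubiquinone, complex III passes them to cytochrome c, and complex IV reduces oxygen. The proton gradient built on the way drives complex V, the ATP synthase. Most subunits are encoded in the nucleus and imported, and a small set is transcribed from mitochondrial DNA, so each of complexes I, III, IV and V is built from both genomes. Early neural progenitors draw much of their ATP from glycolysis and lean more on respiration as they become neurons.

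RNA was sequenced from the telencephalon, the embryonic forebrain that forms cortex and basal ganglia, of 4 Lats1/2 double knockout (dKO) and 5 wild-type (WT) mouse embryos at E12.5, all of a mixed strain background. In dKO embryos a Nestin-Cre transgene removed Lats1 and Lats2, the Hippo kinases that restrain the coactivators YAP and TAZ. Nestin-Cre acts in neural progenitors and their progeny, so vessel, blood, meningeal and immune cells in the same tissue largely keep both genes. Synthetic ERCC RNAs were added per counted cell before extraction, which allows 2 scales. CPM (counts scaled to a common library total by TMM normalization) compares a gene with the typical gene of its library, and the count per 1000 spike-in counts compares RNA per cell. In tissue RNA, a change in the number of expressing cells and a change in RNA per cell cannot be told apart for one gene. Litters were not given, and p-values set the difference between the groups against the spread between these embryos.

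The libraries held 16566763 to 45803152 gene counts in dKO and 12906561 to 39263370 in WT. Gene counts per spike-in count averaged 79.1 ± 5.90 in dKO and 58.1 ± 6.10 in WT (SD, n = 4 and 5), 1.36-fold higher in dKO (two-sided exact permutation p = 0.00794, the smallest that 126 assignments of 9 libraries can give). Lats1 averaged 59.8 CPM in dKO and 132 CPM in WT, a log2 fold change of -1.15. Lats2 averaged 43.4 CPM in dKO and 27.0 CPM in WT (log2 0.69, edgeR adjusted p = 0.0144, and log2 0.41 without WT 2, 3 and 4), the direction opposite to a loss. Which exons Cre removes was not given, so for both genes a count over the whole gene is a limited check of the label. The cause of the higher Lats2 count was not tested. WT libraries 2, 3 and 4 stood apart with 39.3% to 41.3% of reads in no gene, against 32.0% to 35.6% in the other 6 libraries. The 15 telencephalic markers were all detected. By edgeR on the relative scale 9 of them, the neuronal Dcx and Tubb3 included, were lower in dKO, where 12.0% of all genes were. On that scale 0 were higher (0 also at unadjusted p under 0.05), where 13.7% of all genes were. Per cell 4 were higher and 2 lower, where 61.1% and 0.698% of all genes were. Dcx (log2 -0.05) and Tubb3 (0.15) did not pass per cell (edgeR adjusted p = 0.697 and 0.266). Marker sets of other cells were present in both groups: summed CPM was 2294 to 3837 in dKO and 3089 to 7249 in WT for 10 erythroid genes, 238 to 311 and 242 to 313 for 8 endothelial genes, and 762 to 1061 and 839 to 1032 for 8 pericyte and meningeal genes. The sums were 96.8 to 145 in dKO and 80.3 to 97.4 in WT for 9 microglial genes, 165 to 223 and 117 to 443 for 6 choroid plexus genes, 18.5 to 35.4 and 19.5 to 38.2 for 8 surface ectoderm and melanocyte genes, and 3.06 to 4.19 and 4.05 to 4.87 for 8 muscle genes. By edgeR on the relative scale, 3 of 10 erythroid, 1 of 6 choroid plexus and 1 of 5 tested ectodermal and melanocyte genes were lower, and 1 endothelial and 1 microglial gene were higher. No marker was at 0 in all 9 libraries, but Krt5 and Ckm had 3 counts each in all and Myog 7. The part of these cell types in the results below was not tested. For the reads in no gene, counts of calls are given with their share as a covariate and without WT 2, 3 and 4, which leaves 2 WT libraries.

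Promoter sequence is shown as background, because nuclear respiratory factors are classical regulators of many of these genes. RefSeq (GRCm38.p6) gave a promoter for 72 of the 86 genes, and the 250 bases before the annotated start were searched on both strands, with overlaps between motifs allowed. The motif of NRF1, GCGCA and GCGC with any 1 base between them, was present for 14 of 72 genes (19.4%), against 4.23% of 27025 genes with a promoter. CCGGAAG, bound by GABPA, was present for 13 (18.1%), against 7.83% of all. AAGATGGC, bound by YY1, was present for 2 (2.78%), against 1.83%, and GGAATG, bound by the TEAD partners of YAP and TAZ, for 7 (9.72%), against 14.4%. The 27025 genes were not limited to those expressed here or matched for base composition, and the effect of either on these shares was not tested. The window with the most NRF1 and GABPA matches in each complex is printed, 5′ to 3′ on the gene's strand, with NRF1 and GABPA matches in capitals; where windows tied, the first by symbol was taken. The windows are chr16:37654369-37654618 for Ndufb4, chr13:74350241-74350490 for Sdha, chr10:80406822-80407071 for Uqcr11, chr5:115348959-115349208 for Cox6a1 and chr11:115419920-115420169 for Atp5h, all on the minus strand.
Ndufb4: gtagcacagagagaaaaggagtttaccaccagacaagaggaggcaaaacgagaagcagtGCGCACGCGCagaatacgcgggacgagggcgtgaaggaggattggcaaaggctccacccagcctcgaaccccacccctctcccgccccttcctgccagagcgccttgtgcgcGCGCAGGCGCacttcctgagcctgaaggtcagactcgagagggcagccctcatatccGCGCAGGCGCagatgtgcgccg
Sdha: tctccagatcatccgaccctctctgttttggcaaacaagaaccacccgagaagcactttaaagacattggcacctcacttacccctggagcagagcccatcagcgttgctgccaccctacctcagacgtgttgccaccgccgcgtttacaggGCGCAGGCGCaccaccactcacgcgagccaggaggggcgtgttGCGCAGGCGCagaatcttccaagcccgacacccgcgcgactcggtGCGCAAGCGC
Uqcr11: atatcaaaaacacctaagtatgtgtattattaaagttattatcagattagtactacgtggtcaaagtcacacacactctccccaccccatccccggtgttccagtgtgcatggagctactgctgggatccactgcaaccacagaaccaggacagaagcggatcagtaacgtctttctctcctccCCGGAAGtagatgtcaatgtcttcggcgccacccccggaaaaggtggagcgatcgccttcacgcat
Cox6a1: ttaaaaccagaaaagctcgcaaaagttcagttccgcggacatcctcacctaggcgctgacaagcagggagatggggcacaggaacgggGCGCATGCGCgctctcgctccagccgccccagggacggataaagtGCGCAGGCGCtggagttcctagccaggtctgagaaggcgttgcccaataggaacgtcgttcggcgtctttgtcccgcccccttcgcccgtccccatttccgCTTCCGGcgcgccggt
Atp5h: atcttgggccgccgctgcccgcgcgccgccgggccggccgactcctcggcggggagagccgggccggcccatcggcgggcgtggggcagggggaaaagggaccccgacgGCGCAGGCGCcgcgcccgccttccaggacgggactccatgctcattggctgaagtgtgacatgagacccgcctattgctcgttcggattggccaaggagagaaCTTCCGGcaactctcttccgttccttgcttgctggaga
The Ndufb4 and Sdha windows each held 3 NRF1 matches, Cox6a1 held 2 with 1 GABPA match, Atp5h held 1 of each, and Uqcr11 held 1 GABPA match.

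Per cell, the respiratory chain transcripts were higher in dKO almost throughout. By edgeR's quasi-likelihood test on the spike-in scale (Benjamini-Hochberg adjusted p under 0.05 over 17182 genes), 80 of the 86 genes rose in dKO, where 61.1% of all genes tested were called higher. None of the 86 was called lower on this scale, where 0.698% of all genes were, and 0 were lower at unadjusted p under 0.05 or by DESeq2 or limma-voom. The median log2 fold change was 0.48 for the 86 genes and 0.43 for all genes, or 1.40-fold and 1.34-fold. Among 10592 genes with a mean of at least 10 CPM, 8440 were called higher, with a median of 0.44. Per cell values did not overlap between the groups, with dKO above, for 75 of the 86, against 48.4% of all genes. The same held for 6871 of the 10592 genes with a mean of at least 10 CPM. Since each gene is divided by the same 9 spike-in totals, the per cell tests lean on each other.

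Relative to the rest of the library, little was left of that rise. By edgeR with TMM scaling, 8 of the 86 genes rose in dKO, where 13.7% of all genes were called higher, and 0 fell, where 12.0% of all genes were called lower. Beside the 0, 1 gene (Cox7a2l) was lower at unadjusted p under 0.05, and DESeq2 and limma-voom called 0. The median log2 fold change was 0.05 for the 86 genes and -0.01 for all genes, and the quartiles of the 86 lay 0.105 apart against 0.315 for all genes and 0.243 for genes of at least 10 CPM. CPM values did not overlap, with dKO above, for 10 of the 86, against 12.6% of all genes, and were below in dKO for 0, against 9.74%. The 8 calls became 0 without WT 2, 3 and 4 together (4 at unadjusted p under 0.05), and 2 with the share of reads in no gene as a covariate. Leaving out WT 2, 3 and 4 keeps 2 WT libraries, and the effect of the smaller number on the calls was not tested. In that fit the log2 fold changes of Ndufa12 (0.24) and Cox6c (0.18) were no smaller, and those of the others were smaller. The share of all genes called in these alternatives is not given here. The 8 calls became 3 without WT 2, WT 3, WT 4 or dKO 4 alone. There were 4 without dKO 1, 5 without dKO 2 and 10 without dKO 3.

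**Figure D1:**
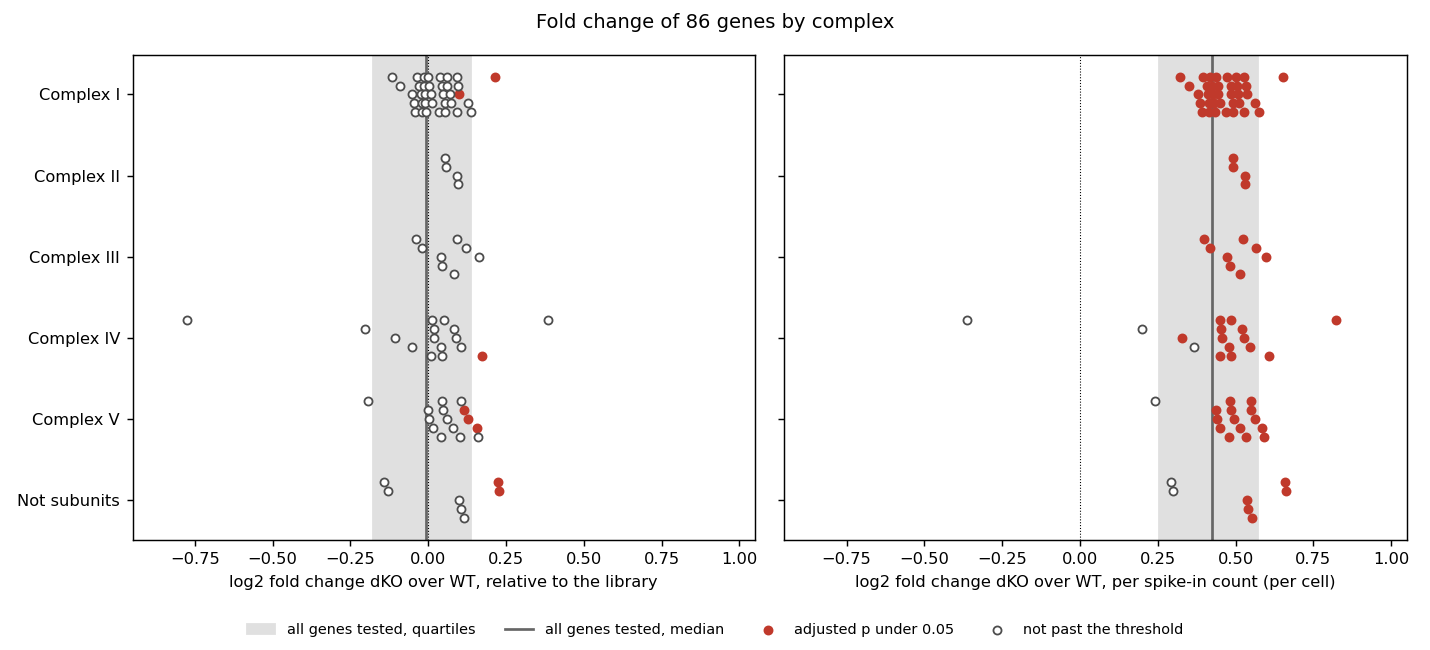
Log2 fold change of dKO over WT for each of the 86 genes (points), by complex, on the relative scale (left) and per spike-in count (right), with the quartiles (grey band) and median (line) of all 17182 genes tested. On the left 8 points pass the threshold, all above 0, and most genes sit near 0; on the right 80 pass it, around a median of 0.48.

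**Figure D2:**
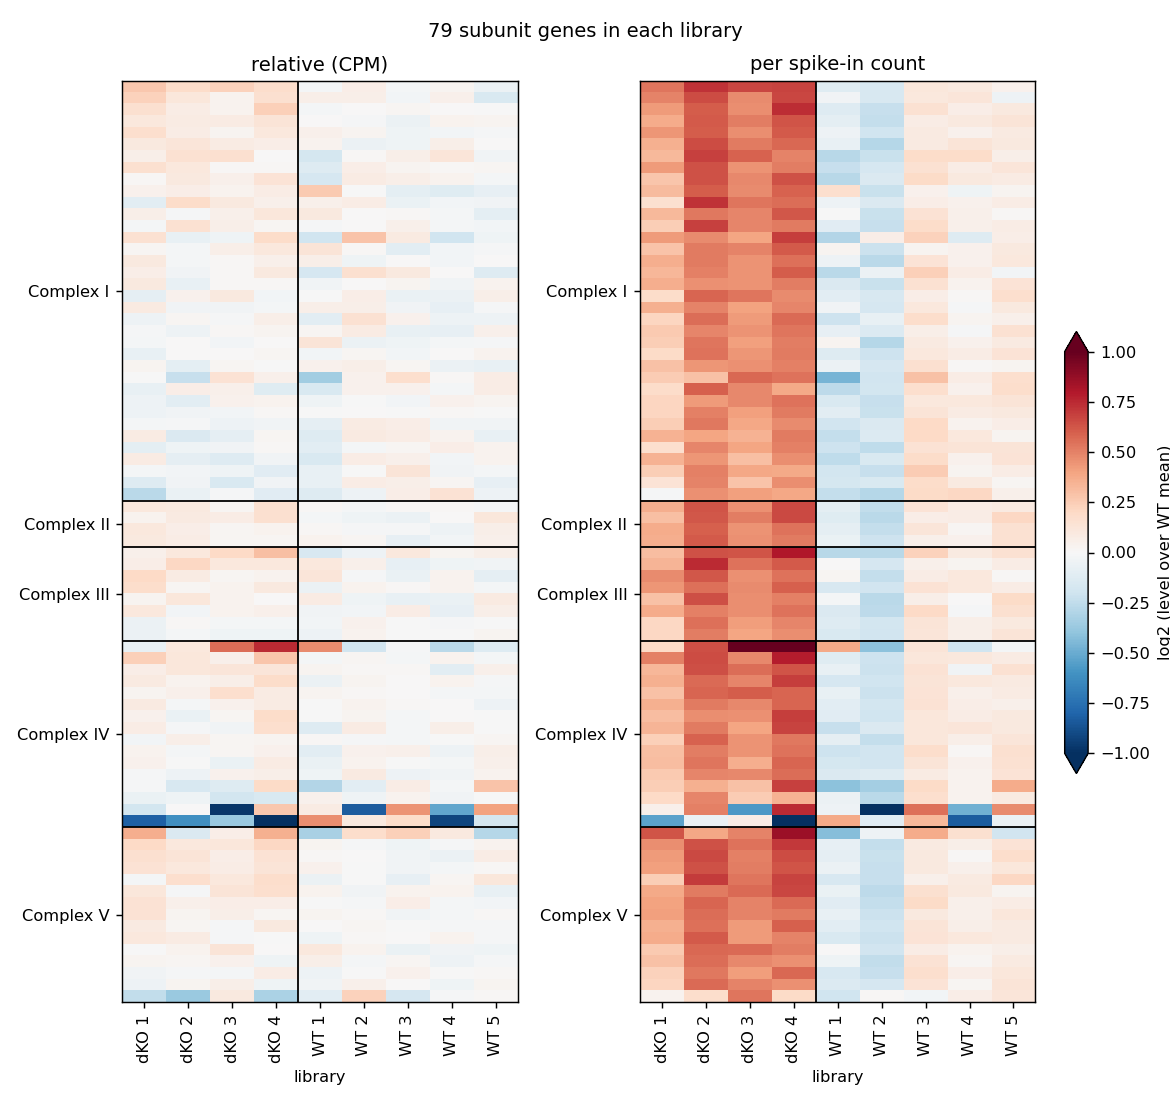
Level of the 79 subunit genes in each library as log2 over the WT mean of the gene, by complex, in CPM (left) and per spike-in count (right); colours are limited to -1 to 1. The dKO columns are pale on the left and red on the right across the complexes, with dKO 1 palest, and the strong colours on the left belong to low-count isoforms at the ends of complex IV.

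The same picture held library by library. Over the 79 subunit genes, the median log2 level per cell against the WT mean was 0.31, 0.55, 0.47 and 0.56 in dKO 1 to 4, and -0.11, -0.21, 0.13, 0.05 and 0.10 in WT 1 to 5. In CPM the medians were 0.04, 0.02, 0.03 and 0.05 in the dKO libraries and -0.01, 0.01, 0.00, -0.02 and -0.01 in the WT libraries. All dKO medians lay above all WT medians on both scales, by a narrow margin in CPM. Summed, the subunit genes took 0.705%, 0.705%, 0.701% and 0.71% of gene counts in dKO 1 to 4, and 0.684%, 0.678%, 0.670%, 0.667% and 0.679% in WT 1 to 5. Per spike-in count their sum was 0.558 ± 0.0431 in dKO and 0.392 ± 0.0392 in WT (SD, n = 4 and 5), a ratio of 1.42.

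**Figure D3:**
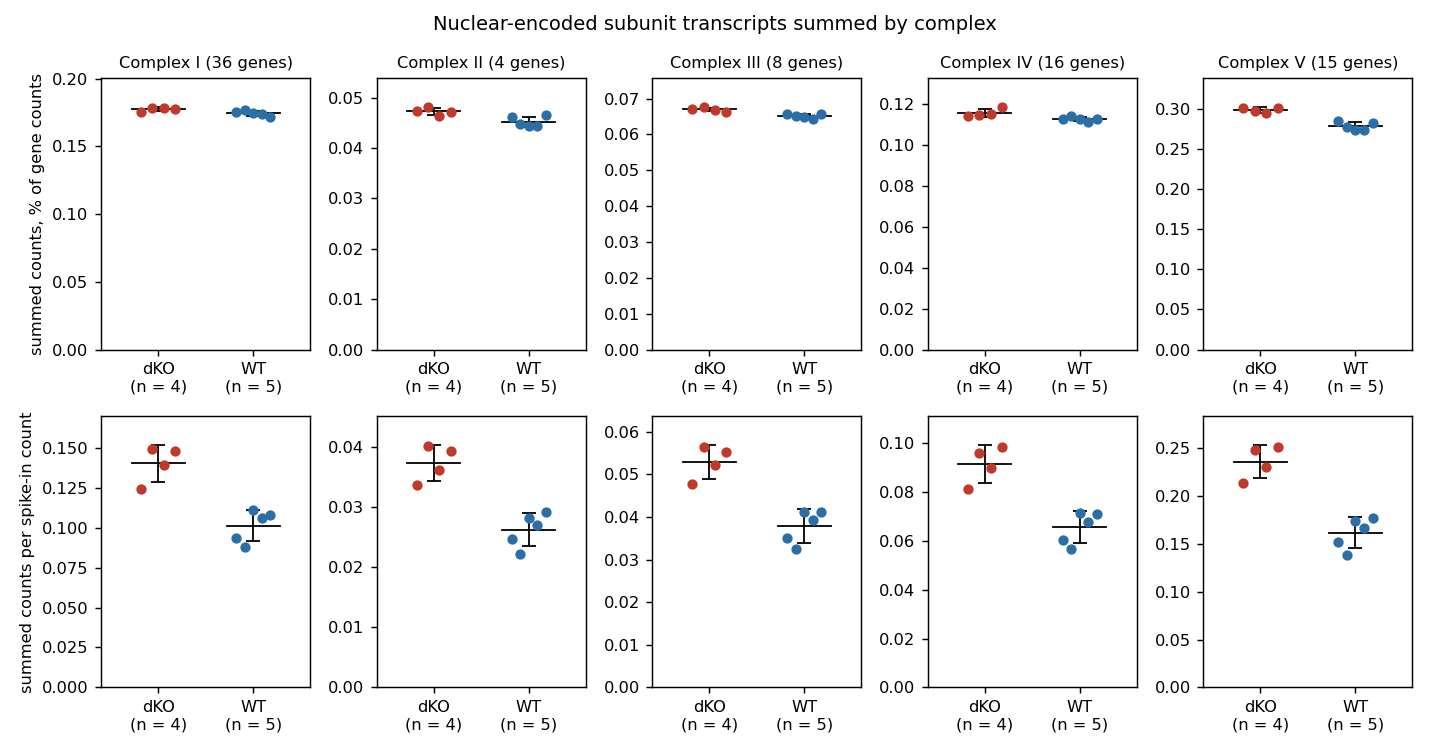
Summed counts of the subunit genes of complexes I to V in each library, as percent of gene counts (top) and per spike-in count (bottom), for dKO (left, n = 4) and WT (right, n = 5); points are libraries, bars the mean and SD, and axes start at 0. Complex V separates the groups by the most in the top row (0.298% in dKO, 0.278% in WT), and each complex separates them in the bottom row.

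Complex I, the NADH dehydrogenase, hardly moved relative to the library. Its 36 genes summed to 0.177 ± 0.00145% of gene counts in dKO and 0.174 ± 0.00174% in WT, with overlap, and to 0.140 ± 0.0114 and 0.101 ± 0.00987 per spike-in count, without overlap. On the relative scale 2 of 36 rose and 0 fell by edgeR (0 lower at unadjusted p under 0.05, and 0 by DESeq2 and limma-voom), with a median log2 fold change of 0.01. Per cell all 36 rose, with a median of 0.45, where 61.1% of all genes were called higher, with a median of 0.43. On the relative scale 13.7% of all genes were called higher and 12.0% lower. The 2 became 1 without WT 2, WT 3, WT 4, WT 5, dKO 1, dKO 2 or dKO 4, and 0 without WT 2, 3 and 4 together. They became 3 without WT 1, where the core subunit Ndufs1 was added (edgeR adjusted p = 0.0410), and 3 without dKO 3, where Ndufs1 (0.0491) and Ndufb6 (0.0373) were added and Ndufa10 was lost. The 7 core subunits, which carry the flavin and iron-sulfur centres and the quinone site, had 0 relative calls (1 at unadjusted p under 0.05) and the 29 accessory subunits had both.

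Ndufa12, an accessory subunit at the tip of the peripheral arm, had 46.8, 44.3, 45.6 and 43.9 CPM in dKO 1 to 4, and 38.5, 40.8, 38.4, 39.6 and 37.4 CPM in WT 1 to 5. The dKO libraries lay above the WT libraries without overlap, and the log2 fold change was 0.21 (SE 0.05, edgeR adjusted p = 0.00617). Per 1000 spike-in counts it had 3.28, 3.74, 3.59 and 3.62 in dKO and 2.08, 2.03, 2.45, 2.42 and 2.34 in WT, 1.57-fold higher in dKO (edgeR adjusted p = 3.6e-05). This relative rise was kept in 17 of 18 alternatives and lost (edgeR adjusted p = 0.0878) without WT 2, 3 and 4, where its log2 fold change was 0.24. It shares 17.7% of the 100-base stretches of its transcript with other annotated genes.

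Ndufa10, an accessory subunit of the membrane arm, had 90.2, 88.7, 88.5 and 91.7 CPM in dKO, and 84.1, 83.3, 80.6, 85.8 and 85.3 CPM in WT. The groups did not overlap, but the difference was small (log2 0.10, SE 0.03, edgeR adjusted p = 0.0452), and the call was kept in 2 of 18 alternatives. It was lost when any one of WT 2, WT 3, WT 4, WT 5 or a dKO library was left out (edgeR adjusted p 0.0507 to 0.121). Ndufa9 and Ndufb6, further accessory subunits, also had dKO libraries above all WT libraries, at 76.3 ± 1.13 and 71.6 ± 2.40 CPM for Ndufa9 and 42.5 ± 2.73 and 38.8 ± 0.393 CPM for Ndufb6. Neither passed the relative test (edgeR adjusted p = 0.0787 and 0.0936). Ndufs1, the largest core subunit, had 125 ± 5.20 CPM in dKO and 117 ± 2.98 CPM in WT (edgeR adjusted p = 0.0750). Ndufa11, a membrane arm subunit, had the lowest relative value, 34.2 ± 2.53 CPM in dKO and 37.0 ± 2.78 CPM in WT (log2 -0.12, edgeR adjusted p = 0.256). Its rise per cell, 1.25-fold (edgeR adjusted p = 0.038), did not pass the test without WT 1, WT 2, dKO 2, dKO 3 or dKO 4 (edgeR adjusted p 0.0675 to 0.108), nor with TMM over the spike-ins (0.0590).

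Per kilobase of transcript, complex I genes ran from 7.61 CPM in dKO and 7.31 in WT for Ndufb4 to 110 and 107 for Ndufa7. Ndufb4, Ndufs5 and Ndufab1 stood at the low end, and 33.4%, 27.0% and 24.4% of their 100-base stretches are shared with other genes, where the authors' counting may have lost reads.

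Complex II, succinate dehydrogenase, is the one complex with no mitochondrially encoded subunit, and it also belongs to the citric acid cycle. Its 4 genes summed to 0.0473 ± 0.000685% of gene counts in dKO and 0.0452 ± 0.00100% in WT, with overlap. By edgeR, 0 of 4 passed the relative test in either direction (1 higher and 0 lower at unadjusted p under 0.05, 0 by DESeq2 and limma-voom), with a median log2 fold change of 0.07; without WT 5 Sdhd passed, and without dKO 3 Sdhb passed. Per cell all 4 rose, by a median log2 of 0.51, where 61.1% of all genes were called higher. The relative shares of all genes were 13.7% higher and 12.0% lower.

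Sdha, the flavoprotein that oxidises succinate, had 206, 200, 194 and 196 CPM in dKO, and 193, 190, 190, 184 and 199 CPM in WT. The groups overlapped through WT 5. Sdhb, the iron-sulfur subunit, had 104, 104, 98.8 and 109 CPM in dKO, and 97.9, 96.3, 98.0, 98.0 and 96.6 CPM in WT. Its groups did not overlap, by a margin under 1 CPM, and the relative test was not passed (log2 0.09, SE 0.03, edgeR adjusted p = 0.0600). The membrane anchors had 99.6 ± 2.73 CPM in dKO and 96 ± 3.54 CPM in WT for Sdhc, and 71.8 ± 2.61 and 67.3 ± 3.25 CPM for Sdhd (edgeR adjusted p = 0.320 and 0.160). Per cell the 4 genes stood close together at 1.41-fold (Sdha), 1.45-fold (Sdhb), 1.40-fold (Sdhc) and 1.44-fold (Sdhd), with edgeR adjusted p-values from 0.000103 to 0.000229.

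Complex III, the cytochrome bc1 complex, summed to 0.0670 ± 0.000501% of gene counts in dKO and 0.0651 ± 0.000540% in WT, without overlap. Of its 8 genes, 0 passed the relative test in either direction by edgeR (2 higher and 0 lower at unadjusted p under 0.05, 0 by DESeq2 and limma-voom), with a median log2 fold change of 0.06. Per cell all 8 rose, by a median log2 of 0.50, where 61.1% of all genes were called higher. The relative shares of all genes were 13.7% higher and 12.0% lower.

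Uqcrq, a small subunit beside cytochrome b, had the largest relative value of the complex, with 28.4, 29.5, 31.5 and 33.8 CPM in dKO, and 24.5, 26.5, 29.5, 27.9 and 28.6 CPM in WT. The groups overlapped and the test was not passed (log2 0.16, SE 0.07, edgeR adjusted p = 0.106). Uqcr10 had 41.5 ± 1.79 CPM in dKO and 38.2 ± 2.04 CPM in WT, and Uqcrb, which shares 15.8% of its 100-base stretches with other genes, had 42.6 ± 2.49 and 40.1 ± 2.38 CPM. Uqcrc2, a core protein facing the matrix, had 172 ± 8.37 CPM in dKO and 163 ± 4.43 CPM in WT. Uqcrh, the hinge protein at the cytochrome c side, had 118 ± 1.33 CPM in dKO and 121 ± 2.82 CPM in WT, the lowest relative value (log2 -0.04, edgeR adjusted p = 0.359). Per kilobase Uqcrh was the most abundant, at 215 CPM in dKO and 221 in WT, and the other 7 ran from 66.9 and 65.0 (Uqcrfs1, the Rieske iron-sulfur protein) to 97 and 98.3 (Uqcr11).

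Complex IV, cytochrome c oxidase, summed to 0.116 ± 0.00191% of gene counts in dKO and 0.113 ± 0.000970% in WT, without overlap; dKO 4 held the highest sum (0.118%) and the other 3 dKO libraries lay between 0.114% and 0.115%. On the relative scale 1 of its 16 genes rose and 0 fell by edgeR (1 lower at unadjusted p under 0.05, 0 by DESeq2 and limma-voom), with a median log2 fold change of 0.03. Per cell 13 rose, with a median of 0.47, and the 3 that did not pass were the low-count isoforms Cox4i2, Cox7a1 and Ndufa4l2. Of all genes, 61.1% were called higher per cell, and 13.7% higher and 12.0% lower on the relative scale.

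Cox6c, a small membrane subunit, had 119, 109, 104 and 122 CPM in dKO, and 99.5, 102, 99.5, 103 and 99.4 CPM in WT. The dKO libraries varied more and lay above all WT libraries, dKO 3 by a small margin. The log2 fold change was 0.17 (SE 0.05, edgeR adjusted p = 0.0194), and the call was lost without dKO 1 (edgeR adjusted p = 0.0573), without dKO 4 (0.0513) and without WT 2, 3 and 4 (0.187). Per cell it was 1.52-fold higher in dKO. Cox8a, another small membrane subunit, had 97, 100.1, 101.0 and 100.9 CPM in dKO, and 94.7, 93.3, 93.3, 86 and 96 CPM in WT. Its groups did not overlap, and the relative test was not passed (log2 0.11, SE 0.04, edgeR adjusted p = 0.0601). Cox7b had 92.0 ± 4.42 CPM in dKO and 86.2 ± 2.25 CPM in WT, with overlap (edgeR adjusted p = 0.115).

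Cox7a2l, which joins complexes III and IV in a supercomplex, had the one relative value below WT among the abundant genes of complex IV, with 99.8, 101, 92.0 and 93.6 CPM in dKO, and 107, 101, 107, 102 and 104 CPM in WT. The groups overlapped at WT 2, and edgeR did not call it (log2 -0.11, SE 0.04, adjusted p = 0.0641), although it was called under a filter at a mean count of 50 (0.0372) and under upper-quartile scaling (0.0400). Per cell it rose 1.25-fold (edgeR adjusted p = 0.0088), one of the smaller rises. That rise did not pass the test without dKO 2 (edgeR adjusted p = 0.0555) or without WT 2, 3 and 4 (0.0523).

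Several complex IV subunits exist as a broadly expressed form and a restricted one, and in complex V Atp5g1, Atp5g2 and Atp5g3 encode the same mature protein. The ratio of such counts within a library needs no scaling. Of 8 such ratios, 6 had at least 90 counts for both genes and were tested by two-sided exact permutation of the libraries, and none passed (Benjamini-Hochberg adjusted p from 0.333 to 0.770; smallest p possible 0.00794). Cox4i2, the form found in lung and pericytes, had 17, 12, 18 and 1 counts in dKO, and 12, 25, 23, 11 and 23 counts in WT, against 51150 counts of Cox4i1 over the 9 libraries. Its count was 0.206%, 0.223%, 0.272% and 0.0321% of that of Cox4i1 in dKO 1 to 4, and 0.486%, 0.384%, 0.409%, 0.189% and 0.311% in WT 1 to 5. WT 4 fell among the dKO values, and the mean log2 ratio (0.5 added to each count) was -9.28 ± 1.17 in dKO and -8.16 ± 0.517 in WT, a difference of -1.12 (exact permutation p = 0.0556, adjusted 0.333). Without dKO 4 the difference was -0.54.

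Cox6b2, the testis form, stood at 1.36%, 1.58%, 2.03% and 2.29% of Cox6b1 in dKO, and at 2.02%, 1.16%, 1.46%, 1.20% and 1.27% in WT, with WT 1 and WT 3 among the dKO values. The mean log2 ratio differed by 0.35 (exact permutation p = 0.167, adjusted 0.5). Per cell Cox6b2 had the largest fold change of the 86 genes, 1.77 (log2 0.82, SE 0.24, edgeR adjusted p = 0.0045), but with overlapping groups and not past the test without WT 2, 3 and 4 (log2 0.63, edgeR adjusted p = 0.0970). Cox7a1, the heart and muscle form, had 20, 14, 9 and 10 counts in dKO and 7, 10, 21, 11 and 26 in WT, and its ratio to Cox7a2 differed by -0.16 on the log2 scale. Ndufa4l2, a hypoxia-inducible relative of the complex IV subunit Ndufa4, differed by -0.07 in its ratio to Ndufa4.

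**Figure D4:**
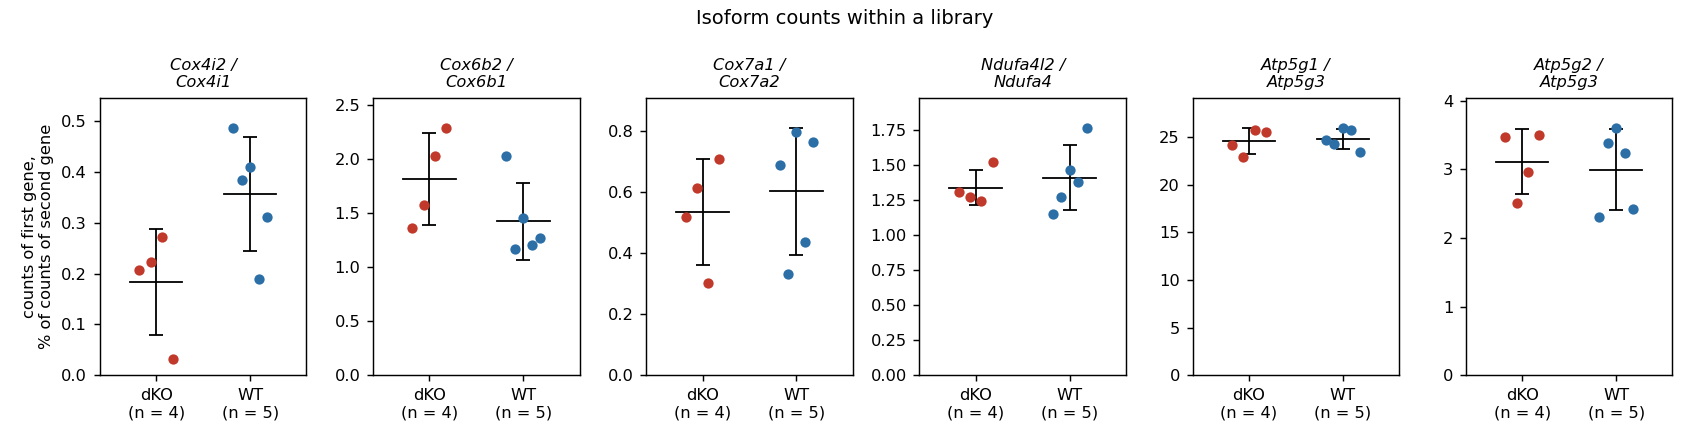
Counts of the first gene as percent of the counts of the second gene in each library, for 6 pairs of isoforms, in dKO (left, n = 4) and WT (right, n = 5); points are libraries, bars the mean and SD, and axes start at 0. The groups overlap in each pair, and dKO 4 has the lowest Cox4i2 share, 0.0321%.

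The muscle forms of 2 further subunits were near absent. Cox6a2 had 6 counts in the dKO libraries together and 3 in the WT libraries, against 23604 counts of Cox6a1 in all, and Cox8b had 0 counts in 9 libraries against 26141 of Cox8a. Per kilobase the broadly expressed genes of complex IV ran from 33.3 CPM in dKO and 32.1 in WT (Cox7c, with 44.4% of its 100-base stretches shared) to 254 and 251 (Cox4i1). The 4 restricted forms that were tested lay between 0.476 and 5.06 CPM per kilobase in dKO and between 0.914 and 3.91 in WT.

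Complex V, the ATP synthase, had the largest sum, and its summed share differed most between the groups, which rested on Atp5a1 and Atp5b. Its median log2 fold change over genes, 0.06, was no larger than those of complexes II (0.07) and III (0.06). Its 15 genes took 0.301%, 0.297%, 0.294% and 0.301% of gene counts in dKO 1 to 4, and 0.284%, 0.277%, 0.274%, 0.273% and 0.283% in WT 1 to 5, without overlap. By edgeR 3 of 15 rose on the relative scale and 0 fell (0 lower at unadjusted p under 0.05, 0 by DESeq2 and limma-voom), with a median log2 fold change of 0.06. The 3 became 0 without WT 2, WT 3 or WT 4, 1 without dKO 4, and 0 without WT 2, 3 and 4 together, and were 2 without WT 1, dKO 1 or dKO 2. Per cell 14 rose, with a median of 0.50, and Atp5l did not pass. Of all genes, 61.1% were called higher per cell, and 13.7% higher and 12.0% lower on the relative scale. Atp5a1 and Atp5b together made up 0.184 ± 0.00380% of gene counts in dKO and 0.167 ± 0.00430% in WT. Without these 2 genes, left out after their values were seen, the other 13 summed to 0.114 ± 0.000604% in dKO and 0.111 ± 0.00114% in WT, still without overlap, and the log2 ratio of the sums was 0.05 in place of 0.10.

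Atp5b, the catalytic beta subunit of the F1 head, was the most abundant of the 86 genes per kilobase (548 CPM in dKO, 492 in WT). It had 1082, 1011, 1017 and 1086 CPM in dKO, and 958, 936, 914, 935 and 966 CPM in WT, without overlap (log2 0.16, SE 0.04, edgeR adjusted p = 0.0223). Per 1000 spike-in counts it had 75.7, 85.2, 80.0 and 89.5 in dKO, and 51.9, 46.6, 58.3, 57.0 and 60.3 in WT, 1.51-fold higher. The relative call was kept in 11 of 18 alternatives; it was lost without WT 2, WT 3, WT 4 or dKO 4 (edgeR adjusted p 0.0529 to 0.0575) and without WT 2, 3 and 4 together (0.361).

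Atp5a1, the alpha subunit that alternates with beta in the head, had 815, 795, 765 and 808 CPM in dKO, and 734, 731, 713, 700 and 766 CPM in WT. WT 5 and dKO 3 met, and the log2 fold change was 0.13 (SE 0.04, edgeR adjusted p = 0.0470). This call was kept in 5 of 18 alternatives, and was lost without WT 1, WT 2, WT 3, WT 4, dKO 1, dKO 2 or dKO 4 (edgeR adjusted p 0.0600 to 0.117). Atp5d, the delta subunit of the central stalk, had 89.0 ± 5.48 CPM in dKO and 82.5 ± 4.31 CPM in WT (edgeR adjusted p = 0.154). Atp5h, the d subunit of the peripheral stalk, had 58.7 ± 1.71 CPM in dKO and 55.5 ± 1.42 CPM in WT (edgeR adjusted p = 0.165).

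The c ring, which turns as protons pass, is encoded by Atp5g1, Atp5g2 and Atp5g3, which give the same mature protein. Atp5g3 had 128, 124, 122 and 126 CPM in dKO, and 119, 115, 113, 114 and 116 CPM in WT, without overlap (log2 0.11, SE 0.03, edgeR adjusted p = 0.0200). The call was kept in 11 of 18 alternatives and lost without WT 2, WT 3 or WT 4 (edgeR adjusted p 0.0502 to 0.0561). The other two ring genes had 30.7 ± 1.62 CPM in dKO and 28.6 ± 0.991 CPM in WT (Atp5g1), and 3.88 ± 0.647 and 3.44 ± 0.615 CPM (Atp5g2), with overlap. Atp5g1 counts were 24.2%, 22.9%, 25.8% and 25.5% of Atp5g3 counts in dKO, and 24.7%, 24.3%, 26.0%, 25.7% and 23.4% in WT, so the balance of both differed by less than the spread between libraries (log2 difference -0.01, exact permutation p = 0.746). Atp5g2 and Atp5g1 share 100% and 57.3% of their 100-base stretches with other genes and Atp5l, the g subunit, 61.3%, so their levels are uncertain. Atp5l had 2.64, 2.42, 3.34 and 2.50 CPM in dKO, and 2.91, 3.67, 2.78, 3.10 and 3.15 CPM in WT, with overlap.

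**Figure D5:**
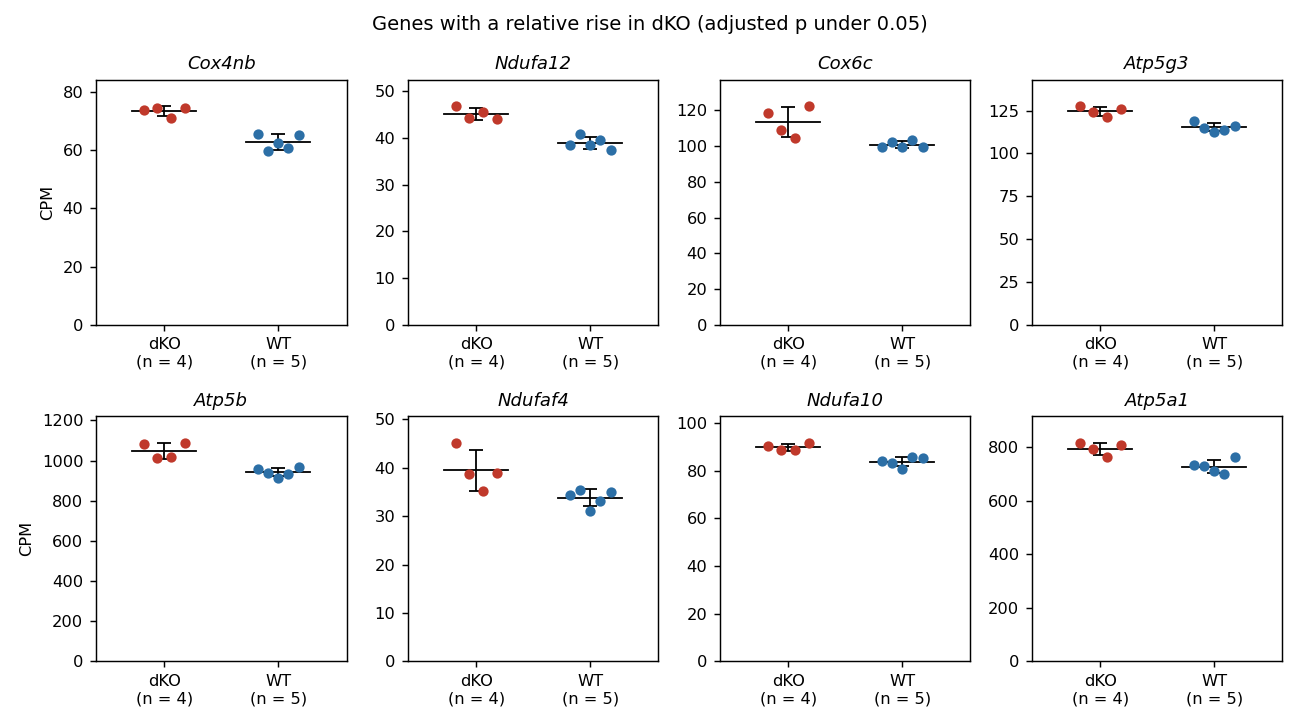
CPM of the 8 genes that rose relative to the library in dKO (edgeR adjusted p under 0.05) in each library, dKO (left, n = 4) and WT (right, n = 5); points are libraries, bars the mean and SD, and axes start at 0. The groups touch for Ndufaf4 and Atp5a1 and are apart for the other 6, and the differences are small beside the level of each gene.

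Among the 7 genes whose symbols match but whose products are not subunits, 2 rose on the relative scale and 5 per cell, and 0 fell on either (0 lower at unadjusted p under 0.05). Of all genes, 13.7% and 61.1% were called higher on these scales, and 12.0% and 0.698% lower. Cox4nb, now named Emc8, encodes a subunit of the ER membrane protein complex, and its gene lies next to Cox4i1. It had 74.0, 74.6, 70.9 and 74.3 CPM in dKO, and 65.6, 59.5, 62.6, 60.8 and 65.3 CPM in WT, without overlap (log2 0.23, SE 0.04, edgeR adjusted p = 0.0025). The call was kept in 17 of 18 alternatives and lost without WT 2, 3 and 4 (0.16, edgeR adjusted p = 0.171). Its neighbour Cox4i1 had 189 ± 4.78 CPM in dKO and 187 ± 2.19 CPM in WT (log2 0.02, edgeR adjusted p = 0.71).

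Ndufaf4, a complex I assembly factor, had 45.2, 38.7, 35.1 and 38.9 CPM in dKO, and 34.3, 35.5, 31.1, 33.2 and 35.1 CPM in WT. dKO 1 stood highest, WT 2 lay above dKO 3, and the relative call (log2 0.22, SE 0.07, edgeR adjusted p = 0.0435) was kept in 5 of 18 alternatives. It was lost without WT 1, WT 2, WT 3, WT 4, WT 5, dKO 1, dKO 2 or dKO 4 (edgeR adjusted p 0.0507 to 0.111). Ndufaf1, another complex I assembly factor, had 18.3 ± 1.31 CPM in dKO and 16.9 ± 0.495 CPM in WT (edgeR adjusted p = 0.185). Atp5sl, Ndufaf3 and, among the subunits, Atp5l, Cox4i2, Cox7a1 and Ndufa4l2 were the 6 genes that did not pass the per cell test.

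Promoter motifs are set beside the fold changes as a description. Genes with an NRF1 or GABPA match had median log2 fold changes of 0.03 (relative) and 0.46 (per cell) over 24 genes, and genes with neither had 0.04 and 0.48 over 48 genes. The 5 genes printed had per cell fold changes of 1.40 (Ndufb4), 1.41 (Sdha), 1.34 (Uqcr11), 1.40 (Cox6a1) and 1.43 (Atp5h).

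Partners of the chain outside the symbol rule gave few calls on the relative scale, where 13.7% of all genes were called higher and 12.0% lower. Of 10 electron carriers and related components, 0 passed in either direction by edgeR (2 higher and 1 lower at unadjusted p under 0.05) and 10 rose per cell, with medians of 0.03 and 0.47. Cycs, the mobile electron carrier cytochrome c, had 14.0 ± 1.83 CPM in dKO and 11.4 ± 1.32 CPM in WT (log2 0.29, edgeR adjusted p = 0.0657), and was called by DESeq2 (adjusted p = 0.0455) and by edgeR without dKO 2 (0.0283). Atpif1, the inhibitor of ATP synthase, had 104 ± 4.53 CPM in dKO and 111 ± 3.59 CPM in WT (log2 -0.10, edgeR adjusted p = 0.0931). Of the 29 tested assembly genes (8 for complex I, 2 for II, 4 for III, 12 for IV and 3 for V), 0 passed the relative test by edgeR, with 2 higher and 1 lower at unadjusted p under 0.05. The nearest for each complex were Nubpl and Foxred1 for complex I (log2 0.14 and -0.07), Sdhaf1 and Sdhaf2 for II (-0.13 and 0.05), Ttc19 and Lyrm7 for III (-0.08 and -0.29), Lrpprc and Cox19 for IV (0.10 and -0.13), and Tmem70 and Atpaf1 for V (0.14 and 0.16). Tmem70 was called by limma-voom (adjusted p = 0.0445) and by edgeR without WT 1 (0.0366), and Lrpprc by edgeR without dKO 2 (0.0364). Per cell 26 of the 29 rose, where 61.1% of all genes were called higher. Of those named, Sdhaf1 did not pass per cell in 11 of 18 alternatives (adjusted p 0.0607 to 0.245), Cox19 in 7 (0.0507 to 0.138), Foxred1 in 2 (0.0587 and 0.0714) and Ttc19 in 1 (0.0501). Single libraries whose omission ended the call were WT 1, WT 2, WT 4, dKO 2, dKO 3 and dKO 4 for Sdhaf1, WT 1, WT 2, dKO 2 and dKO 4 for Cox19, and dKO 2 for Ttc19.

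Subunits encoded by mitochondrial DNA lay mostly below WT on the relative scale, but few passed the test. The relative log2 fold change was above 0 for 1 of the 12 tested, for 55 of the 79 nuclear subunit genes and for 8341 of all 17182 genes. The mitochondrial genes summed to 0.817 ± 0.0448% of gene counts in dKO and 0.870 ± 0.0804% in WT, with overlap. Of 12 tested, 0 rose and 2 fell by edgeR, where 12.0% of all genes were called lower (0 higher and 4 lower at unadjusted p under 0.05). The median log2 fold change was -0.15. Per cell 6 rose, against 61.1% of all genes, and the median was 0.29. mt-Nd4, a proton-pumping subunit of complex I, had 153 ± 9.85 CPM in dKO and 176 ± 13 CPM in WT (log2 -0.21, edgeR adjusted p = 0.0245), and the call was lost without WT 2, WT 4, dKO 1 or dKO 3 (0.0537 to 0.0700), and without WT 2, 3 and 4 together (0.124). mt-Co2, of complex IV, had 3.56 ± 0.102 CPM in dKO and 4.49 ± 0.382 CPM in WT (log2 -0.33, edgeR adjusted p = 0.0410). The call was lost without WT 1, WT 2, WT 3 or any one dKO library (0.0559 to 0.106), and without WT 2, 3 and 4 together (0.347). It was also lost by DESeq2 (adjusted p = 0.0524), and by edgeR with no filter on low counts (0.0893), the replicate number as a block (0.0803) or the share of reads in no gene as a covariate (0.211). The counts of mt-Co2 were low beside those of mt-Co1 of the same complex, which averaged 5454 CPM in dKO and 5757 CPM in WT. Reads that also align to nuclear copies of mitochondrial DNA are left out of counts of uniquely aligned reads, and whether this lowered mt-Co2 and the mitochondrial sum was not tested. The summed nuclear subunit counts were 0.840, 0.935, 0.818 and 0.867 times the summed mitochondrial ones in dKO 1 to 4, and 0.908, 0.692, 0.767, 0.770 and 0.773 times in WT 1 to 5. WT 1 lay among the dKO values, so the groups overlapped.

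Regulators of mitochondrial biogenesis and mitochondrial transcription gave 1 rise and 1 fall among 19 tested genes by edgeR on the relative scale. Of all genes, 13.7% were called higher and 12.0% lower. Gabpa, the ETS factor whose motif is marked in the promoters above, had 126 ± 8.34 CPM in dKO and 110 ± 3.03 CPM in WT (log2 0.20, SE 0.05, edgeR adjusted p = 0.00928). Esrra, an orphan nuclear receptor that drives respiratory genes with PGC-1 coactivators, had 17.8 ± 0.324 CPM in dKO and 21.2 ± 0.88 CPM in WT (log2 -0.25, SE 0.05, edgeR adjusted p = 0.00468). Both calls were lost without WT 2, 3 and 4 (edgeR adjusted p = 0.264 and 0.0788). That of Gabpa was also lost with the share of reads in no gene as a covariate (log2 0.14, edgeR adjusted p = 0.120).

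The citric acid cycle feeds the chain with NADH and succinate. Among 18 of its genes, edgeR called 6 higher and 2 lower on the relative scale, against 13.7% and 12.0% of all genes. The median log2 fold change of the 18 was 0.10, and 17 rose per cell, where 61.1% of all genes were called higher. Suclg2, the GTP-forming subunit of succinyl-CoA ligase, had 39.9 ± 1.92 CPM in dKO and 29.6 ± 2.24 CPM in WT (log2 0.43, SE 0.06, edgeR adjusted p = 0.000985). Pdha1, a subunit of pyruvate dehydrogenase, which supplies acetyl-CoA, had 148 ± 6.80 CPM in dKO and 120 ± 6.53 CPM in WT (log2 0.30, SE 0.05, edgeR adjusted p = 0.00118). Both relative rises exceeded those of the 8 genes named above, and both calls were lost without WT 2, 3 and 4 (edgeR adjusted p = 0.0583 and 0.0894). Pcx, which encodes pyruvate carboxylase and was named after its values were seen, was among the falls (log2 -0.22).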

How the data were processed

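The deposited files give, for each library, raw counts of reads by gene symbol. The submitters' processing notes name STAR, HTSeq and mm9; their versions, the annotation and the strand setting were not given in the sources used here, so overlapping and antisense genes cannot be told apart. Per the labels' protocols, ERCC RNAs were added to pellets of a counted number of dissociated cells, and 350 ng of RNA went into stranded paired-end libraries of 100 bp reads. Members and lists were chosen with earlier results of these data known. In R 4.3.3, filterByExpr kept 17182 of 34590 genes (99.9% of counts). They were tested with edgeR 4.0.16 (quasi-likelihood, Benjamini-Hochberg over the genes kept, threshold 0.05), with TMM scaling or with the total of 92 ERCC spike-ins as library size. The SE is the log2 fold change over the root of F. DESeq2 1.42.0, voom of limma 3.58.1 and the settings in the closing section were alternatives. The procedure was also run on simulated counts, whose spike-ins varied between libraries of a group by counting noise alone. That run therefore could not check the per cell calls under the spread seen here. Depth limits genes of few counts the most.

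Named genes were, in each complex, the 5 of smallest adjusted p on the relative scale and the largest and smallest fold change, all of complex II, the isoform pairs, Cox7a2l, 3 non-subunits and 2 of each pathway list; others were named after their values were seen. Transcript lengths and shared 100-base stretches come from GENCODE M21 (the shortest principal protein-coding transcript), another build than that of the counts. Left out were reads in no gene (32.0% to 41.3% per library), with several alignments (15.7% to 18.3%) and unaligned (6.14% to 7.49%).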

Additional observations from a re-analysis of the deposited data

Results flagged for a closer look

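In 102 groups of values, a library was marked where it lay far from the others of its group (Dixon's criterion), which chance does in about 5% of groups, and 4 were marked. Cox8a had 86 CPM in WT 4, below 93.3 to 96 CPM in the other WT libraries. Atp5h had 58.0 CPM in WT 3, above 54.4 to 55.3 CPM in the others. Cox4nb had 70.9 CPM in dKO 3, below 74.0 to 74.6 CPM in the other dKO libraries. The log2 ratio of Cox4i2 to Cox4i1 was -11.02 in dKO 4, where Cox4i2 had 1 count, below -8.88 to -8.48 in the other dKO libraries.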

How the results depend on the processing

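Per cell, the number of the 86 genes called higher stayed between 77 and 82 in all 18 alternatives, with 0 lower. The relative calls rested on more: 8 genes higher became 4 with no filter on low counts, 2 with the share of reads in no gene as a covariate, 5 with upper-quartile scaling, 0 without WT 2, 3 and 4, and 3 to 10 when 1 library was left out. By complex, the 2 calls of complex I became 1 with DESeq2, limma-voom, no filter, the covariate, median-ratio or upper-quartile scaling, 0 without WT 2, 3 and 4, and 1 to 3 with 1 library left out. The 3 of complex V became 1 with no filter, 0 with the covariate or without WT 2, 3 and 4, and 0 to 3 with 1 library left out. The 1 of complex IV became 0 with the covariate or without WT 2, 3 and 4, and 0 to 1 with 1 library left out; complex II went 0 to 1. A mean count of at least 50 and upper-quartile scaling each gave 1 gene lower, in complex IV. The cause of these changes was not tested.

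No pairing of embryos by replicate number was seen: deviations of same-numbered libraries correlated at -0.152, -0.13, -0.265 and 0.142. Such correlations cannot show whether litters or processing were shared. With the number as a replicate block, 3 genes were called higher on the relative scale (1 in complex I, 0 in complex V) and 81 per cell.

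The log2 ratios of summed shares moved with medians over genes in place of sums for complex I (0.00403, reported 0.0236), complex III (0.0561, reported 0.0396), complex V (0.0533, reported 0.10) and all subunits (0.0375, reported 0.0617). Without WT 2, 3 and 4 they were 0.0287 for complex II (reported 0.0629), 0.0736 for complex V and 0.0488 for all subunits. Without Atp5a1 and Atp5b, chosen after seeing the data, they were 0.0457 for complex V and 0.0365 for all subunits. No direction was reversed. Few counts limit Cox4i2, Cox7a1 and Ndufa4l2, and shared sequence limits Atp5g2, Atp5l and Atp5g1.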
